A study of Mus musculus with 8 samples.

Results

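The 6 genes of NADPH oxidase proteins described here, Cybb, Cyba, Ncf1, Ncf4, Rac2 and Nox4, were measured in mouse liver by RNA sequencing. They were chosen by name, as the rows of the deposited count tables whose Ensembl identifier maps to these symbols on GRCm38, and so made up 6 of the 52636 genes in the tables. All 6 passed the filter on low counts and were among the 15248 genes tested. The livers came from 8 male wild-type C57BL/6J mice, 4 injected at 7 weeks of age with AAV8-GFP and 4 with AAV8-AGXT. This adeno-associated virus reaches the liver, and here it carried either GFP or human AGXT behind the TBG promoter, which is active in hepatocytes. AGXT is the enzyme that turns glyoxylate into glycine, and the comparison asked what raising it in hepatocytes changed in the liver during metabolic dysfunction-associated steatohepatitis (MASH). From 8 weeks of age both groups ate the same diet, rich in fat, cholesterol and fructose, for 24 weeks, and livers of chow-fed mice were not analysed here. Animals 303, 311, 314 and 315 received AAV8-GFP, and animals 308, 309, 316 and 319 received AAV8-AGXT.

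NADPH oxidases move electrons from NADPH across a membrane to oxygen and so make superoxide or hydrogen peroxide. In phagocytes the membrane core is a pair of proteins, the catalytic gp91phox (NOX2, from Cybb) and its partner p22phox (from Cyba), which is silent until other proteins, among them p47phox (Ncf1), p40phox (Ncf4) and the small GTPase Rac2, arrive from the cytosol. Nox4 encodes a related catalytic protein that also needs p22phox but works without the cytosolic subunits and releases mostly hydrogen peroxide. In liver the phagocyte complex is known mainly from macrophages and neutrophils, whereas NOX4 is known from hepatocytes, stellate cells and endothelium.

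Per mouse, 17095433 to 28780140 read pairs were counted on genes. Levels are given as CPM, the count of a gene relative to the total count of its library, scaled between libraries by the TMM method, as mean ± SD over 4 mice. Differences are log2 fold changes of AAV8-AGXT over AAV8-GFP from a quasi-likelihood fit in edgeR over all genes, and a gene was called when its p-value, adjusted by the Benjamini-Hochberg method over the 15248 genes, was under 0.05. Albumin (Alb), a marker of the labelled tissue, was at 25931 to 43389 CPM in the 8 mice. In AAV8-GFP mice the mouse gene Agxt was at 148 to 180 CPM and in AAV8-AGXT mice at 201 to 405 CPM (adjusted p = 0.0489 in edgeR), and whether reads of the human transgene fell on this row was not tested. AAV8-AGXT mouse 308 stood apart: 56.3% of its tallied read pairs lay on genes, where the other mice had 62.4% to 69.1%, and it was the lowest of all 8 mice for Cybb, Cyba, Ncf1, Ncf4 and Rac2. Results are therefore also given without it.

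The stretch before the start site is shown for Cybb and Ncf1, because these members varied together across the mice and their windows held the motif matches described here. RefSeq promoter windows on GRCm38.p6 were at hand for 4 of the 6 genes, Cybb, Cyba, Ncf1 and Nox4. The 250 bases before the RefSeq start site are printed 5′ to 3′ on the strand of the gene, which is the minus strand for both. Capitals mark TTTC, any 2 bases and TTTC again, on either strand, a core of the elements through which interferons act. The Cybb window is chrX:9469325-9469574 and the Ncf1 window is chr5:134229626-134229875, and neither holds an annotated exon. The Cybb window lies inside the GENCODE span of its gene (9435252 to 9487771), as the Nox4 window does. For these genes the RefSeq start site is therefore not the outer end of the GENCODE span.
Cybb: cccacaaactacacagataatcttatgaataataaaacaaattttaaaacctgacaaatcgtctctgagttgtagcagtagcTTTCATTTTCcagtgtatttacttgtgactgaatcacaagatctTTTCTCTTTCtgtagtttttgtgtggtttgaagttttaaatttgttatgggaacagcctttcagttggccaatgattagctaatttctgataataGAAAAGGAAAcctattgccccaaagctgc
Ncf1: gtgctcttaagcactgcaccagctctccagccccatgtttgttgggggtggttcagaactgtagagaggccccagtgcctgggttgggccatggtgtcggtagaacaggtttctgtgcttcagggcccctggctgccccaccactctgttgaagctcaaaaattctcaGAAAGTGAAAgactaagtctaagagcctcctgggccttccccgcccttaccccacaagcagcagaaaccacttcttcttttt
The Cybb window held 3 matches, which began 168, 124 and 29 bases before the start site, the first and the second on the strand of the gene and the third on the other. The Ncf1 window held 1 match, 82 bases before the start site, on the other strand. The Cyba and Nox4 windows held 0, and 2.98% of 32851 promoter windows of the same length held at least 1. GAGGAA, a core of the sites that the myeloid factor PU.1 binds, was in 0 of the 4 windows on either strand and in 23.3% of all windows. A match of letters is a description and says nothing of binding in these livers.

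The subunits lay at different levels once divided by the summed exon length of each gene. This length joins the exons of all annotated transcripts, from 1039 bases for Cyba to 8471 for Nox4. Which transcripts the livers held was not tested, so the order depends on the annotation. In CPM per kilobase of exon, Cyba was highest with 37.3 ± 8.09 with AAV8-GFP and 21.03 ± 7.94 with AAV8-AGXT (SD, n = 4 each), above Rac2 in every mouse and without overlap of the ranges in either group. In AAV8-GFP mice the order went on with Rac2 at 7.13 ± 1.56, Cybb at 5.84 ± 1.30, Ncf4 at 5.77 ± 0.678, Ncf1 at 3.19 ± 0.646 and Nox4 at 2.85 ± 0.542 CPM per kilobase. Of these neighbours Ncf4 and Ncf1 did not overlap, while Rac2 and Cybb, Cybb and Ncf4, and Ncf1 and Nox4 lay within each other's spread. In AAV8-AGXT mice the per-kilobase levels below Cyba ran from Rac2 at 4.55 ± 2.27 through Cybb at 4.03 ± 1.88, Nox4 at 3.63 ± 1.30 and Ncf4 at 3.01 ± 1.25 to Ncf1 at 2.47 ± 1.05. The ranges of all these neighbours overlapped in that group.

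Cybb (ENSMUSG00000015340, chromosome X, 9435252 to 9487771) encodes the subunit that carries the electrons. Its level was 23.9, 40.1, 39.3 and 32.2 CPM in AAV8-GFP mice 303, 311, 314 and 315, and 7.39, 25.6, 30.7 and 29.9 CPM in AAV8-AGXT mice 308, 309, 316 and 319. Mouse 308 was far below the rest, and the other 3 AAV8-AGXT mice lay inside the AAV8-GFP range. The means were 33.9 ± 7.55 and 23.4 ± 10.9 CPM (SD, n = 4 each), and the log2 fold change was -0.53 (standard error 0.36, 95% interval -1.34 to 0.28, adjusted p = 0.381 in edgeR). Without mouse 308 the log2 fold change was -0.25 (adjusted p = 0.446 in edgeR).

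Cyba (ENSMUSG00000006519, chromosome 8, 122424776 to 122432930) encodes the membrane partner shared by NOX2 and NOX4. AAV8-GFP mice 303, 311, 314 and 315 had 33.6, 51.2, 35.8 and 34.1 CPM, and AAV8-AGXT mice 308, 309, 316 and 319 had 12.3, 18.3, 25.8 and 31.0 CPM. Every AAV8-AGXT mouse was below every AAV8-GFP mouse, the closest pair being mouse 319 and mouse 303. Means of 38.7 ± 8.41 and 21.8 ± 8.24 CPM (SD, n = 4 each) corresponded to a log2 fold change of -0.82 (standard error 0.26, 95% interval -1.40 to -0.24). This difference did not pass in edgeR (adjusted p = 0.0895; 0.13 without mouse 308, where the log2 fold change was -0.64) and did in the Wald test of DESeq2 (adjusted p = 0.0309).

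Ncf1 (ENSMUSG00000015950, chromosome 5, 134220053 to 134229625) encodes p47phox, the organizer whose phosphorylation starts assembly. The AAV8-GFP mice 303, 311, 314 and 315 had 9.41, 14.9, 11.7 and 10.7 CPM, against 3.94, 9.86, 9.24 and 13.2 CPM in the AAV8-AGXT mice 308, 309, 316 and 319. The groups overlapped, and mouse 319 was above 3 of the AAV8-GFP mice. Means of 11.7 ± 2.36 and 9.06 ± 3.84 CPM (SD, n = 4 each) gave -0.36 as log2 fold change (standard error 0.30, 95% interval -1.04 to 0.32, adjusted p = 0.483 in edgeR), and without mouse 308 it was -0.13 (adjusted p = 0.737). Gtf2ird2 overlaps Ncf1 on the other strand, and because the strand setting of the counting is not given in the sources used here, reads of the pair cannot be told apart.

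Ncf4 (ENSMUSG00000071715, chromosome 15, 78244801 to 78262580) encodes p40phox, which binds the phosphoinositide of phagosome membranes. Its level was 10.8, 13.7, 11.3 and 10.9 CPM in AAV8-GFP mice 303, 311, 314 and 315, and 2.76, 5.47, 8.06 and 8.02 CPM in AAV8-AGXT mice 308, 309, 316 and 319. The groups did not overlap, and the AAV8-GFP values were close together. With AAV8-GFP the mean was 11.7 ± 1.37 CPM and with AAV8-AGXT it was 6.08 ± 2.52 CPM (SD, n = 4 each). The log2 fold change was -0.93 (standard error 0.28, 95% interval -1.56 to -0.30), the most negative of the 6, and 5.92% of all tested genes lay at or below it. It did not pass in edgeR (adjusted p = 0.0825; 0.0836 without mouse 308, where the log2 fold change was -0.71) and did in DESeq2 (adjusted p = 0.0201).

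Rac2 (ENSMUSG00000033220, chromosome 15, 78559167 to 78572783) is the Rac GTPase of blood cells and completes the active complex. AAV8-GFP mice 303, 311, 314 and 315 had 16.6, 28.4, 20.99 and 22.5 CPM. AAV8-AGXT mice 308, 309, 316 and 319 had 5.52, 11.8, 17.3 and 21.8 CPM. Mice 316 and 319 reached into the AAV8-GFP range and the other two did not. The means were 22.1 ± 4.85 and 14.1 ± 7.04 CPM (SD, n = 4 each). The log2 fold change of Rac2 was -0.64 (standard error 0.34, 95% interval -1.40 to 0.12, adjusted p = 0.266 in edgeR), and -0.39 (adjusted p = 0.344) without mouse 308.

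Nox4 (ENSMUSG00000030562, chromosome 7, 87246096 to 87398710), the oxidase that needs no cytosolic subunit, had the only positive fold change of the 6. Its level was 22.8, 21.2, 21.5 and 30.9 CPM in AAV8-GFP mice 303, 311, 314 and 315, and 24.4, 47.1, 27.3 and 24.1 CPM in AAV8-AGXT mice 308, 309, 316 and 319. The difference between the means, 24.1 ± 4.59 and 30.7 ± 11.0 CPM (SD, n = 4 each), came largely from mouse 309. The log2 fold change was 0.35 (standard error 0.23, 95% interval -0.15 to 0.85, adjusted p = 0.353 in edgeR), and without mouse 309 it was 0.05 (adjusted p = 0.854). Mouse 308, the lowest mouse for the phagocyte subunits, was in the middle of the Nox4 values.

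**Figure D1:**
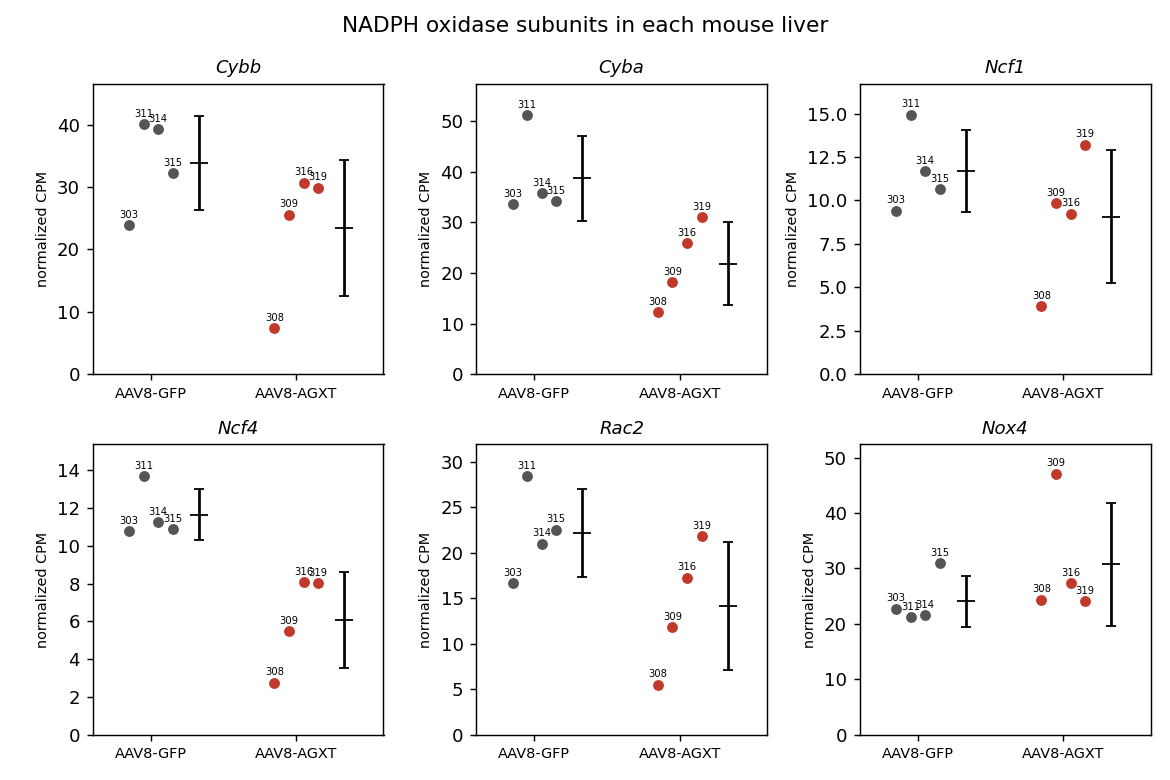
Normalized CPM (vertical axis of each panel, from 0) of the 6 NADPH oxidase subunits in each mouse, by virus, with mouse numbers beside the points and the mean ± SD of 4 mice as a bar. The AAV8-AGXT points lie wholly below the AAV8-GFP points for Cyba and Ncf4 and overlap them for Cybb, Ncf1, Rac2 and Nox4.

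Across the 6 subunits, 0 were called in edgeR, where 4.35% of all tested genes were called and 1.9% were called lower. At an unadjusted p under 0.05, edgeR had 2 (Cyba and Ncf4), beside 26.2% of all tested genes. DESeq2 called the same 2, both lower, beside 12.4% of its genes called and 6.11% called lower, and limma-voom called 0. The groups were apart for 2 of the 6, both lower in AAV8-AGXT mice, beside 7.63% of all tested genes that were wholly lower. None of the 6 was wholly higher, beside 8.93% of all tested genes. The median log2 fold change of the 6 was -0.59, and that of all tested genes was 0.02. Without mouse 308 the median of the 6 was -0.32. A p-value above the threshold does not show equal levels, and the 95% intervals above reach from -1.56 for Ncf4 to 0.85 for Nox4. The sign of each of the 6 differences was the same in all 13 alternative fits.

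**Figure D2:**
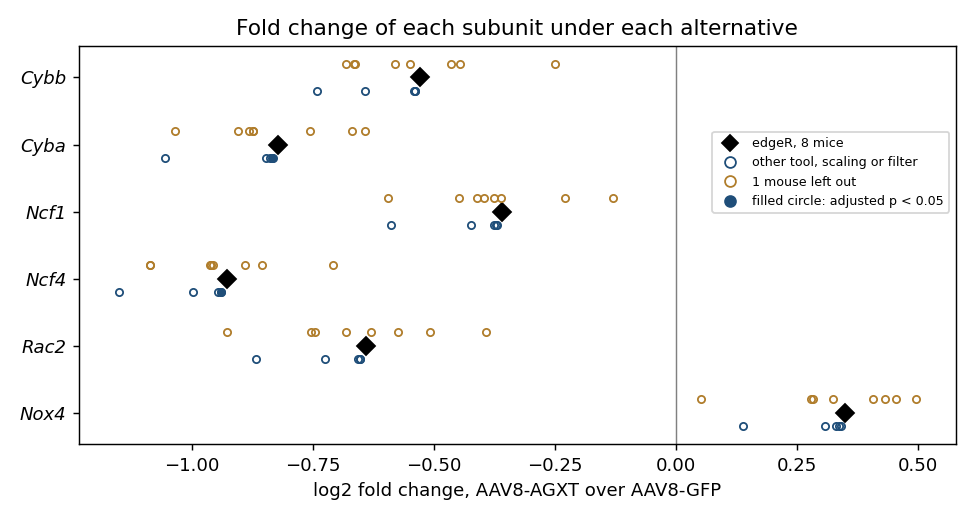
Log2 fold change of AAV8-AGXT over AAV8-GFP (horizontal axis) for each subunit, in edgeR with all 8 mice (diamond), with other tools, scalings or filters (blue) and with 1 mouse left out (ochre), where filled circles mark an adjusted p under 0.05. The 5 phagocyte subunits stay left of 0 and Nox4 right of 0, and the filled circles are DESeq2 for Cyba and Ncf4.

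The 5 subunits of the phagocyte oxidase varied together from mouse to mouse. Over the 8 mice, Pearson's r of log2 CPM between any pair of them was between 0.856 (Cybb and Cyba) and 0.976 (Cyba and Ncf4). After each group's mean was subtracted it was still between 0.848 and 0.967, so the likeness was also present inside the groups. Between Nox4 and the other 5 it was between -0.45 (Cyba) and -0.05 (Cybb), or between -0.22 and 0.20 with the group means subtracted. These are descriptions over 8 points that share treatment group and library depth, and mouse 308 is the low point of all 5 phagocyte subunits.

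**Figure D3:**
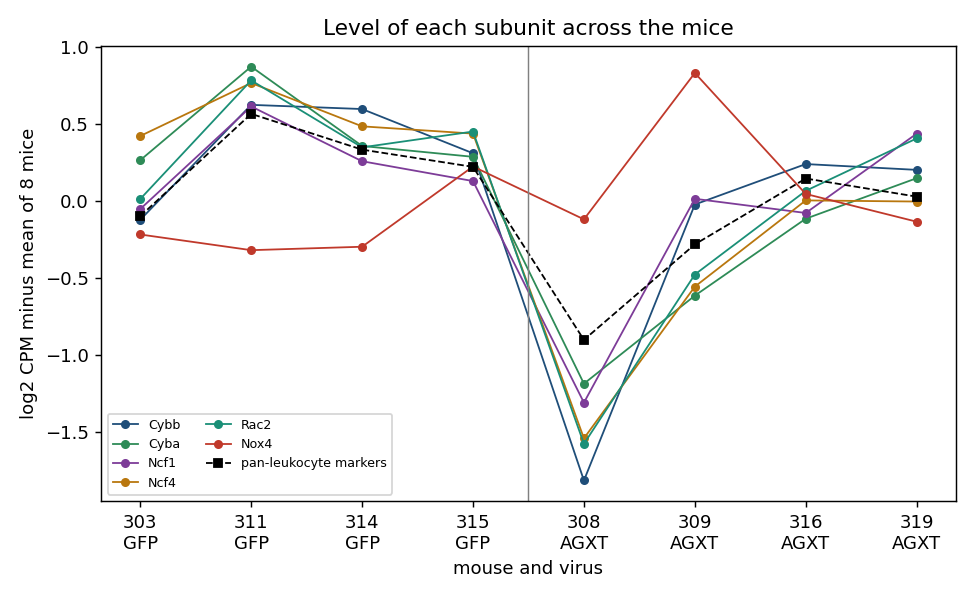
Log2 CPM of each subunit, and of the summed pan-leukocyte markers (dashed), in each mouse as the difference from that gene's mean over 8 mice, with lines that only join the values of 1 gene. Cybb, Cyba, Ncf1, Ncf4 and Rac2 are lowest in AAV8-AGXT mouse 308 and follow the dashed line, while Nox4 peaks in mouse 309.

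The genes most like each subunit over the 8 mice, out of all tested, were largely genes of leukocytes for the phagocyte complex. Closest to Cybb were Mpeg1, which encodes a pore-forming protein of macrophages (r = 0.990), Ms4a6b (r = 0.988) and the inhibitory receptor gene Lair1 (r = 0.987). Closest to Cyba were Cd52, Csf3r, the receptor of granulocyte colony-stimulating factor, and Grap2, at r = 0.986 to 0.989. Ncf1 was most like Serpina3f, Sdc3 and Csf1r, the receptor of the macrophage growth factor, at r = 0.980 to 0.984. The neighbours of Ncf4 were H2-DMb1, which loads peptides on MHC class II (r = 0.998), Rnf122 (r = 0.990) and Cyth4 (r = 0.989). Those of Rac2 were Slc11a1, the phagosome metal transporter, the complement gene C1qc and the receptor gene Pilra, at r = 0.996 to 0.997. Nox4 had other neighbours, Aff1 (r = 0.975), Usp45 (r = 0.972) and Rapgef4 (r = 0.966). None of these 18 genes was called between the groups, and the correlations are descriptions over the same 8 libraries.

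Leukocyte markers had fold changes of the same sign as the phagocyte subunits. In bulk liver, fewer cells of a type and less RNA per cell cannot be told apart. Of 6 pan-leukocyte markers 0 were called in edgeR (2 at an unadjusted p under 0.05) and all 6 had a negative log2 fold change, with a median of -0.61, or -0.36 without mouse 308. Summed, they reached 215 to 340 CPM with AAV8-GFP and 123 to 254 CPM with AAV8-AGXT. Lcp1 was the largest part of this sum in every mouse, with 77.9 of the 123 CPM in mouse 308. Its log2 fold change was -0.17, beside -1.09 for Cd52 (adjusted p of 0.522 and 0.0833 in edgeR). An unadjusted p under 0.05 was reached by 26.2% of all tested genes. DESeq2 called 2 of the 6 pan-leukocyte markers lower and 0 higher, beside 12.4% of all its genes called and 6.11% called lower. It called 1 of the 9 macrophage markers lower and 1 higher. Of 9 macrophage markers 0 were called and 7 were negative (3 at an unadjusted p under 0.05), and their sum was 913 to 1523 CPM against 402 to 1141 CPM. For Adgre1, the gene of the macrophage antigen F4/80, the log2 fold change was 0.13 (adjusted p = 0.86 in edgeR). The part of these cells in the subunits' differences was not tested beyond the ratios given next.

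To set each subunit beside leukocyte RNA within its own library, the log2 ratio of its CPM to the summed pan-leukocyte markers was compared between groups by an exact, two-sided permutation of the virus labels, whose 70 arrangements allow no p below 0.0286. Lcp1 weighs most in these summed markers and had the least negative log2 fold change of the 6 (-0.17). Ratios to a sum without Lcp1 were not tested. The Ncf4 ratio was -4.32, -4.64, -4.69 and -4.62 in AAV8-GFP mice 303, 311, 314 and 315, and -5.48, -5.11, -4.98 and -4.87 in AAV8-AGXT mice 308, 309, 316 and 319, without overlap. It differed by -0.54 (exact p = 0.0286, unadjusted, over 6 such ratios). Without mouse 303 the difference was -0.46 (exact p = 0.0571). The other ratios overlapped between the groups, with differences of -0.19 for Cybb (exact p = 0.857), -0.38 for Cyba (exact p = 0.0857), 0.04 for Ncf1 (exact p = 0.857), -0.29 for Rac2 (exact p = 0.257) and 0.82 for Nox4 (exact p = 0.143). Set against the summed macrophage markers in place of the pan-leukocyte markers, the Ncf4 ratio again did not overlap and differed by -0.46 (exact p = 0.0286), and the other 5 overlapped. Single mice decided some of these values: without mouse 308 the Cybb difference was 0.079, without mouse 319 those of Cyba and Rac2 were -0.48 and -0.46 (exact p = 0.0286 each), and without mouse 309 or 319 that of Ncf1 was -0.056 or -0.094.

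**Figure D4:**
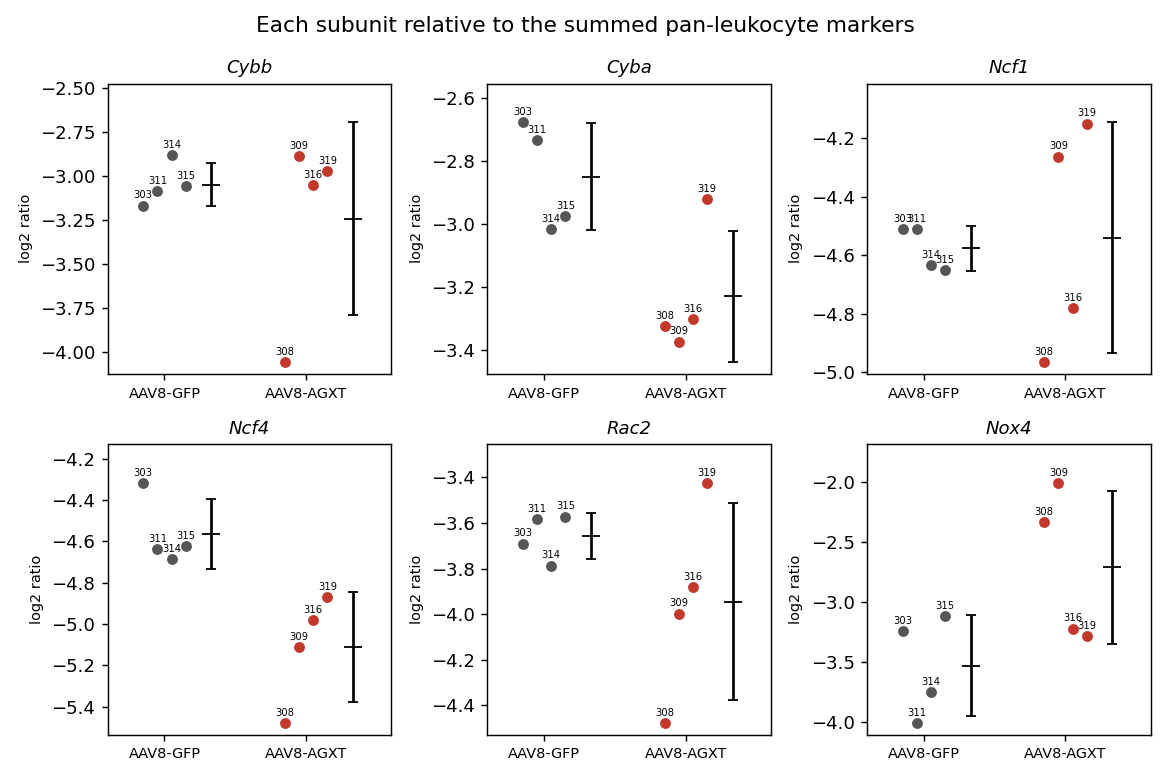
Log2 ratio (vertical axis) of each subunit's CPM to the summed pan-leukocyte markers in each mouse, by virus, with the mean ± SD of 4 mice as a bar. The groups are apart for Ncf4 and overlap for the other 5, and mouse 308 is the lowest point of the Cybb panel.

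The proportions of the subunits to each other were also compared. Relative to Cybb, Ncf1 differed between the groups by 0.23 on the log2 scale (exact permutation p = 0.286), Ncf4 by -0.35 (exact p = 0.229), Rac2 by -0.09 (exact p = 0.714) and Nox4 by 1.01 (exact p = 0.171). Cybb relative to Cyba differed by 0.19 (exact p = 0.543). All 5 of these proportions overlapped between the groups. The Rac2 difference turned to 0.043 without mouse 309. The Nox4 to Cybb ratio was widest among AAV8-AGXT mice, from -0.31 in mouse 319 to 1.72 in mouse 308. The other 10 of the 15 pairs were compared after these values had been seen, and 2 of them did not overlap. The log2 ratio of Ncf1 to Ncf4 was -0.20, 0.13, 0.05 and -0.03 in AAV8-GFP mice 303, 311, 314 and 315, and 0.51, 0.85, 0.20 and 0.72 in AAV8-AGXT mice 308, 309, 316 and 319. It was higher in AAV8-AGXT mice by 0.58 (exact permutation p = 0.0286, unadjusted, the smallest possible; 0.0571 without mouse 303). The log2 ratio of Ncf4 to Nox4 differed by -1.36 (exact permutation p = 0.0286, unadjusted; 0.114 without mouse 311), with -1.50 to -0.63 in AAV8-GFP and -3.14 to -1.59 in AAV8-AGXT mice. For the remaining 8 pairs the exact p was 0.0571 or more.

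Of 13 further oxidase subunits, maturation factors and partners, 9 were tested. Beside 4.35% of all tested genes called and 1.9% called lower, 1 of these 9 was called. This was Duoxa1, which encodes the factor that brings dual oxidase 1 to the membrane, with 0.898, 0.979, 1.06 and 0.662 CPM in AAV8-GFP mice 303, 311, 314 and 315 and 0.207, 0.421, 0.205 and 0.0472 CPM in AAV8-AGXT mice 308, 309, 316 and 319. Duoxa1 was lower in AAV8-AGXT mice, with -2.05 as its log2 fold change (standard error 0.47, adjusted p = 0.0446 in edgeR). It rests on 108 read pairs over the 8 mice, shares its locus with Duoxa2 on the other strand, and was called in 7 of the 13 alternative fits. With 1 mouse left out it was called in 2 of 8 fits, and its adjusted p was largest without mouse 311 (0.148 in edgeR). Its partner Duox1 was as scarce, at 0.849 ± 0.274 and 0.181 ± 0.208 CPM (SD, n = 4 each), with a log2 fold change of -2.20 (adjusted p = 0.0699 in edgeR) and no overlap of the groups. Of all tested genes, 7.63% were wholly lower.

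Cybc1, whose product helps gp91phox and p22phox to mature, was at 22.1 ± 3.28 CPM with AAV8-GFP and 17.5 ± 0.975 CPM with AAV8-AGXT (SD, n = 4 each) and lower in every AAV8-AGXT mouse (log2 fold change -0.34, adjusted p = 0.129 in edgeR). Poldip2, which encodes a protein that binds p22phox and NOX4, was at 94.6 ± 6.59 and 119.4 ± 9.64 CPM and higher in every AAV8-AGXT mouse (log2 fold change 0.34, adjusted p = 0.0815 in edgeR). Of all tested genes, 7.63% were wholly lower in AAV8-AGXT mice and 8.93% wholly higher. The widely expressed GTPase genes lay near 0, with log2 fold changes of 0.06 for Rac1, -0.07 for Rac3 and 0.05 for Rap1a (adjusted p of 0.771 to 0.909 in edgeR). Noxa1 and Noxo1, which encode the activator and the organizer of the NOX1 oxidase, had -0.55 and -0.42 (adjusted p of 0.229 and 0.601 in edgeR). Rac1, Cybc1, Noxa1 and Noxo1 overlap a gene on the other strand and share the uncertainty of Ncf1. Nox1, Nox3, Duox2 and Duoxa2 had too few counts to be tested.

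**Figure D5:**
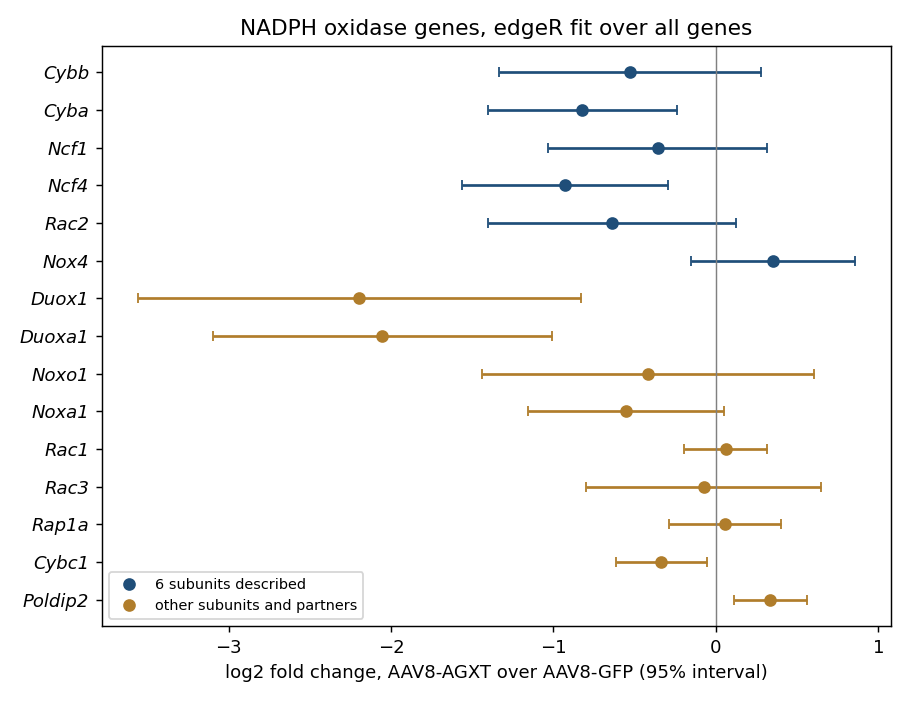
Log2 fold change of AAV8-AGXT over AAV8-GFP (horizontal axis) with its 95% interval from edgeR, for the 6 subunits described (blue) and the 9 other oxidase genes tested (ochre). The intervals of Cyba, Ncf4, Duox1, Duoxa1 and Cybc1 lie wholly below 0 and that of Poldip2 wholly above 0, before adjustment over all genes.

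Upstream of the oxidase lie the receptors, kinases and exchange factors that trigger it. Of 26 such genes, all tested, 1 was called lower in AAV8-AGXT mice and 0 higher, beside 1.9% of all tested genes called lower. All 26 had a negative log2 fold change, with a median of -0.56 beside 0.02 for all tested genes. The groups were wholly apart, and lower, for 7 of the 26, beside 7.63% of all tested genes. The called gene was Card9, an adaptor of fungal recognition, at 6.09 ± 1.50 CPM with AAV8-GFP and 2.37 ± 1.07 CPM with AAV8-AGXT (SD, n = 4 each; log2 fold change -1.35, adjusted p = 0.0495 in edgeR). Card9 overlaps an antisense gene and was called in 4 of the 13 alternative fits, none of them a fit that left out a mouse (adjusted p up to 0.17 in edgeR, without mouse 311). Without mouse 308 the median of the 26 was -0.36 and 25 were negative. Next by p-value came Hvcn1, the proton channel that balances the charge moved by NOX2 (log2 fold change -1.21, adjusted p = 0.0795), Fcer1g, the signalling chain of Fc receptors (-0.93, adjusted p = 0.0866), and Prkcb, a kinase of p47phox (-0.73, adjusted p = 0.0902), all in edgeR. Spi1, which encodes PU.1, the transcription factor of myeloid cells, was at 29.3 ± 6.11 and 15.2 ± 7.39 CPM and lower in every AAV8-AGXT mouse (log2 fold change -0.94, adjusted p = 0.117 in edgeR). DESeq2 called 6 of the 26, all lower, beside 6.11% of all its genes that were called lower.

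Markers of the other cells of the liver are given for comparison. Counts called stand beside 4.35% of all tested genes, and counts at an unadjusted p under 0.05 beside 26.2%. Of 8 markers of recruited and lipid-associated macrophages 1 was called, Cd9 (log2 fold change -1.03, adjusted p = 0.0298 in edgeR), and their sum was 383 to 887 CPM with AAV8-GFP and 94.6 to 397 CPM with AAV8-AGXT. Spp1, which is also in the cholangiocyte list, made up 201 to 611 CPM of that sum with AAV8-GFP and 60.3 to 239 CPM with AAV8-AGXT, and without it the other 7 summed to 182 to 275 CPM against 34.2 to 181 CPM. Of 6 resident Kupffer cell markers 0 were called (2 at an unadjusted p under 0.05), with a median log2 fold change of 0.37 and a sum of 231 to 364 CPM against 181 to 743 CPM. Without AAV8-AGXT mouse 319, which had 156 CPM of Marco where the other mice had 0.554 to 12.4 CPM, the median was -0.02 and 3 of the 6 were negative. Marco was at 0.554 to 5.65 CPM with AAV8-GFP and 5.94 to 156 CPM with AAV8-AGXT (log2 fold change 3.63, adjusted p = 0.0801 in edgeR). It was the only 1 of the 6 without overlap of the groups, beside 8.93% of all tested genes wholly higher. Neutrophil markers were scarce: 4 of 10 were tested and 0 called (1 at an unadjusted p under 0.05), the sum was 21.2 to 33.8 CPM against 7.11 to 23.6 CPM, and Ly6g, Mpo, Camp and Ltf each had at most 12 read pairs over the 8 mice. T cell markers (6) and B cell markers (4) summed to at most 17.4 and 9.12 CPM in any mouse, with 0 called (3 and 0 at an unadjusted p under 0.05). Of 6 stellate cell markers 1 was called, Acta2 (log2 fold change -0.99, adjusted p = 0.0427 in edgeR), and the list had a median of -0.33, with Lrat (0.11) and Reln (0.22) positive. Without mouse 319 that median was -0.15. Endothelial markers (6) had a median of 0.23 with 0 called (0 at an unadjusted p under 0.05), and cholangiocyte markers (5) a median of -1.34 with 0 called (5 at an unadjusted p under 0.05). Of 7 hepatocyte markers 2 were called higher, Cps1 (0.96, adjusted p = 0.0279) and Cyp2e1 (1.15, adjusted p = 0.0198 in edgeR), and the list summed to 47894 to 56787 CPM against 62979 to 87456 CPM. With 1 mouse left out, the called markers Cyp2e1, Cps1, Cd9 and Acta2 were called in 5, 4, 4 and 0 of 8 fits. DESeq2 called more markers, beside 12.4% of all its genes called and 6.11% called lower. Lower were 4 of 8 recruited and lipid-associated macrophage, 3 of 6 T cell and 4 of 5 cholangiocyte markers. Of the neutrophil and stellate cell lists 1 each was lower. Higher were 1 of 6 resident Kupffer and 4 of 7 hepatocyte markers, and 0 B cell or endothelial markers were called. None of the 6 subunits is in a marker list, and the part of these cell types in the subunits' differences was not tested.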

How the data were processed

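Liver RNA of 8 mice, 4 per virus, was analysed, with groups taken from the treatment in the sample labels and no mouse left out. The deposited values are raw counts of read pairs per Ensembl gene, 1 library per mouse. The authors prepared stranded mRNA libraries and, per the labels and the submitters' processing notes, used FastQC 0.11.8, Trimmomatic 0.35, HISAT2 2.1.0.13, HTSeq and GRCm38, whereas the strand option of the counting is not given in the sources used here. The tallies of pairs counted on no gene were kept out of library sizes, and pairs on genes made up 56.3% to 69.1% of all tallies. Pairs aligned at several places were not counted, which lowers genes with close copies. Symbols and positions came from GENCODE M21, which matched 52489 of the 52636 identifiers.

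In R 4.3.3, edgeR 4.0.16 kept 15248 genes by filterByExpr, with TMM normalization and a quasi-likelihood test with virus as the only term. Adjustment was over all genes tested, with a threshold of 0.05. Standard errors were derived from the coefficient and the F statistic. CPM used the TMM factors too, with a prior count of 2 for the log2 CPM of correlations. The common biological coefficient of variation was 23.3%, and members had 40 to 1674 read pairs per mouse. How much of the imprecision came from counting, which weighs more at the low end, was not tested. Alternatives were the DESeq2 1.42.0 Wald test (the authors also used DESeq2), limma-voom in limma 3.58.1, DESeq2's size factors in edgeR, library totals with no composition factor, all genes with no low-count filter, and each of the 8 mice left out. The fit was tested on simulated data with 200 changed genes.

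The members and lists were chosen with earlier results of these data known. Named were the 6 members, every tested gene of the list of other oxidase subunits and partners, up to 4 genes with the smallest p-value from each other pathway list, the 3 genes most correlated with each member, and Ptprc, Adgre1, Spi1, Alb and Agxt where a sentence needed them. Of the marker lists, genes that were called or that define a cell type were named after their values were seen. One item is not reported here. Promoter windows are those of RefSeq on GRCm38.p6.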

Additional observations from a re-analysis of the deposited data

Results flagged for a closer look

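In groups of 4 mice, a value was singled out when its gap to the nearest other mouse, divided by the range of the group, exceeded the 95% critical value of Dixon's test, which chance does for about 1 in 20 groups. Of 34 groups of values tested for the subunits and their ratios, 7 had such a mouse. AAV8-GFP mouse 311 was above the rest of its group for Cyba at 51.2 CPM and for Ncf4 at 13.7 CPM. For Nox4, AAV8-GFP mouse 315 stood out at 30.9 CPM and AAV8-AGXT mouse 309 at 47.1 CPM. The log2 ratio to the summed pan-leukocyte markers was -4.06 for Cybb in AAV8-AGXT mouse 308, below its group. The same ratio was -2.92 for Cyba in AAV8-AGXT mouse 319, above its group. The log2 ratio of Rac2 to Cybb was -0.91 in AAV8-GFP mouse 314, below its group.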

How the results depend on the processing

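No subunit was called in edgeR, limma-voom or any fit that left out a mouse, and DESeq2 called 2 of the 6. The adjusted p of the 5 phagocyte subunits was largest without AAV8-GFP mouse 311, at 0.231 for Ncf4 to 0.762 for Ncf1. Over all genes, 664 were called, 2078 by DESeq2 and 1001 with total counts, where 85.6% were lower in place of 43.7% and the median log2 fold change of all genes was -0.22 in place of 0.02. With 1 mouse left out, 2 to 643 genes were called: 2 without mouse 311, 14 without 319, 15 without 314, 177 without 308, 193 without 303 and 411 without 316. Ratios to the pan-leukocyte markers, with 1 mouse left out, differed by -0.31 to 0.079 for Cybb (reversed without 308), -0.48 to -0.32 for Cyba (exact p = 0.0286 without 319), -0.094 to 0.18 for Ncf1 (reversed to -0.056 without 309 and -0.094 without 319), -0.62 to -0.42 for Ncf4 (exact p = 0.0571 without 303) and -0.46 to -0.11 for Rac2 (exact p = 0.0286 without 319). Rac2 to Cybb differed by -0.19 to 0.043, reversed without 309. The cause was not tested. No paired analysis was possible because the groups share no replicate numbers.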

Other observations

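Genes on either side of the oxidases, which use its product or make its substrate, were also measured. Of 15 enzymes that remove superoxide and hydrogen peroxide, 1 was called higher in AAV8-AGXT mice and 0 lower, with a median log2 fold change of 0.09. Of all 15248 tested genes, 374 were called higher and 290 lower (4.35% in total). With total counts the median of the 15 was -0.15, 12 were negative and 0 were called. DESeq2 called 2 of the 15 higher and 1 lower, beside 12.4% of all its genes called. The called gene was Prdx6, a peroxiredoxin that also repairs oxidized phospholipids, with 409 to 488 CPM under AAV8-GFP and 586 to 804 CPM under AAV8-AGXT (log2 fold change 0.60, standard error 0.14, adjusted p = 0.0461 in edgeR). Prdx6 was called in 5 of the 13 alternative fits. With 1 mouse left out it was called in 1 of 8 fits, and its adjusted p was largest without AAV8-GFP mouse 311 (0.157 in edgeR). Catalase (Cat) was higher in every AAV8-AGXT mouse without passing (0.44, adjusted p = 0.119 in edgeR), and the extracellular enzymes Sod3 (-0.45, adjusted p = 0.0852) and Gpx3 (-0.84, adjusted p = 0.183) had negative log2 fold changes. Of all tested genes, 8.93% were wholly higher.

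The median log2 fold change of 9 enzymes that supply NADPH was 0.23. Of these, 2 were called higher and 0 lower, beside 374 higher and 290 lower among all 15248 tested genes (4.35% in total). Both belong to folate metabolism: Aldh1l1 was at 307.4 ± 46.3 and 491.3 ± 73.8 CPM (log2 fold change 0.68, adjusted p = 0.0451 in edgeR) and Mthfd1 at 113.6 ± 9.59 and 156.7 ± 15.6 CPM (log2 fold change 0.46, adjusted p = 0.0495 in edgeR), in AAV8-GFP and AAV8-AGXT mice (SD, n = 4 each). Both overlap other genes. They were called in 6 and 3 of the 13 alternative fits, and in 2 and 1 of the 8 fits that left out a mouse. Neither was called without mouse 311 or with total counts, where the median of the 9 was -0.02 and 1 was called lower. DESeq2 called 2 of the 9 higher and 1 lower, beside 12.4% of all its genes called. Pgd, of the pentose phosphate pathway, was lower in every AAV8-AGXT mouse without passing in edgeR (log2 fold change -0.44, adjusted p = 0.0724), and Idh1 had 0.29 (adjusted p = 0.205). Of all tested genes, 7.63% were wholly lower.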
